A study of Mus musculus with 6 samples.

Results

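Solute carriers (SLC) were taken as the 73 genes, of 4233 listed in the table, whose symbol begins with Slc or Slco followed by a digit. They fall into 34 families when the Slco genes count as 1. The set includes the antisense RNA Slc13a2os and the adaptor Slc9a3r2, which carry the family name and are not carriers. The RNA came from meningeal cells of male mice aged 6 months on the C57BL/6J strain, gated as live CD45- CD31+ podoplanin+ singlets to select lymphatic endothelium. The 3 5xFAD libraries were from hemizygous transgenic mice, and the 3 WT libraries from their non-transgenic littermates. Cells of 10 mice were pooled for each library, and the pools are the replicates. The transgenes of 5xFAD mice are driven by the neuronal Thy1 promoter, which gives the brain amyloid, so the sorted cells are not those in which the transgenes are meant to be expressed. The comparison addressed here is which carriers these cells express most, by substrate, and which differ between genotypes.

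Solute carriers move small molecules across membranes by facilitated diffusion, by exchange, or by coupling to gradients of sodium or protons. Members at the plasma membrane set the uptake of amino acids, sugars, vitamins and ions, family 25 serves the inner mitochondrial membrane, and family 35 supplies nucleotide sugars to the Golgi. In brain endothelium they are best known as the gates of the blood-brain barrier, while lymphatic endothelium lines vessels that drain interstitial fluid.

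Recovered reads in the listed genes numbered 7960827 to 13255050 per library, and 0.754 to 1.05% of them fell on SLC genes. Within either genotype the SD of log2 reads stayed under 2 for every listed gene, a limit that no source used here states. All 10 lymphatic endothelial markers were analysed, with summed normalised counts of 224200 to 355203 in 5xFAD libraries and 250861 to 292395 in WT libraries. Of other cells, 7 of 11 blood endothelial markers were analysed (25456 to 33078 in 5xFAD libraries and 25629 to 43840 in WT libraries), as were 4 of 12 markers of fibroblasts and arachnoid (26023 to 28296 in 5xFAD libraries and 21801 to 41501 in WT libraries). There were also 2 of 6 mural, 1 of 7 erythroid and platelet, 1 of 10 neural and glial and 0 of 7 leukocyte markers. None of the markers analysed passed by limma, and 0 had an unadjusted p under 0.05. Markers that are not listed have no values here, and one uneven within a genotype would fall outside the spread limit. Equal purity of the pools therefore cannot be read from these markers. In bulk samples, fewer cells of a type and less RNA per cell cannot be told apart. The glucose carrier Slc2a1, the amino acid carriers Slc3a2, Slc7a5 and Slc38a5, the lactate carrier Slc16a1, the iron exporter Slc40a1 and the organic anion carriers Slco1c1, Slco2a1 and Slco3a1 were not analysed here.

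Levels were compared between genes as normalised counts per kilobase (kb) of merged exons. Only listed genes have a level, so carriers that are not listed have no rank or share here. Among the 73 listed SLC genes the 10 highest were, in order, Slc31a2, Slc38a2, Slc9a3r2, Slc47a1, Slc38a6, Slco2b1, Slc6a6, Slc43a3, Slc4a10 and Slc23a2. They held 60.5 to 68.9% of the summed level of all 73 genes in 5xFAD libraries and 52.9 to 72.2% in WT libraries. Of the 73 genes, 30 averaged at least 100 per kb, 27 lay between 10 and 100 per kb, and 16 lay under 10 per kb. The median level was 83.2 per kb, against 149 per kb over the 3725 listed genes with an annotated length. Slc31a2 lay above 98.4% of those genes and Slc23a2 above 87.4%. For each of the 9 neighbouring pairs among the 10 highest, the mean difference in level was smaller than its SD over the 6 libraries. The order of neighbours is therefore not resolved by this measure. Genes further apart were not compared this way, and Slc38a2, for example, lay above Slc38a6, Slc43a3, Slc4a10 and Slc23a2 in every library.

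**Figure D1:**
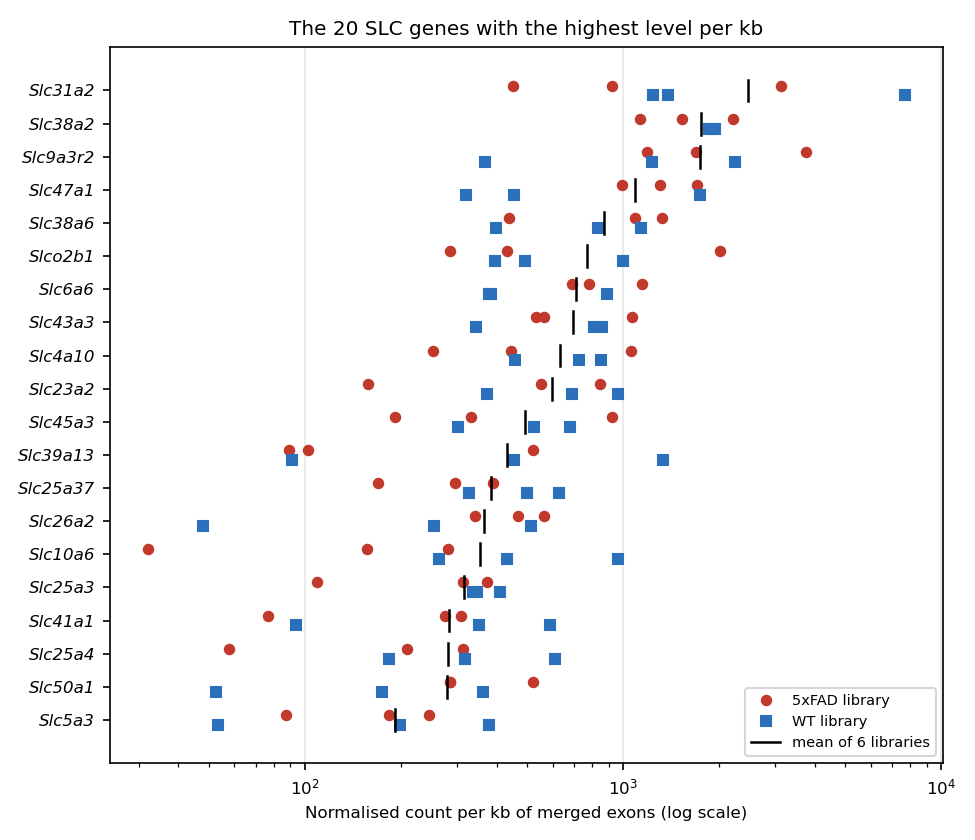
Level of the 20 highest of the 73 listed SLC genes, in normalised counts per kb of merged exons on a log axis. Circles are the 3 5xFAD libraries, squares the 3 WT libraries and bars the mean of all 6, and the highest mean, 2476 per kb for Slc31a2, includes the WT library at 7715 per kb.

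Slc31a2, a copper transporter related to the importer of the plasma membrane, was at 925, 451 and 3144 per kb in 5xFAD, against 1241, 1381 and 7715 per kb in WT. The library WT 3 was highest by far. Without it the mean level was 1428 per kb, against 2476 per kb with all 6 libraries, and Slc9a3r2 and Slc38a2 ranked above it. Slc38a2, a sodium-coupled carrier of small neutral amino acids, was at 1126, 2209 and 1534 per kb in 5xFAD, against 1899.9, 1950.3 and 1857 per kb in WT. Slc31a2 and Slc38a2 were the 2 genes in the 10 highest of every library. Slc9a3r2, a scaffold that ties ion exchangers to the cytoskeleton, was at 1691, 1193 and 3764 per kb in 5xFAD, against 1232, 2251 and 367 per kb in WT, with its highest value in 5xFAD 3 and its lowest in WT 3.

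Slc47a1, a proton antiporter of organic cations, was at 1308, 993 and 1708 per kb in 5xFAD, against 320.2, 455 and 1748 per kb in WT. It also stands in the list of fibroblast and arachnoid markers, whose sum is given above, and the part of such cells in its level was not tested. Slc38a6, of the same family as Slc38a2, was at 1087, 437 and 1324 per kb in 5xFAD, against 398, 837 and 1142 per kb in WT. Slco2b1, a carrier of organic anions and steroid sulfates, was at 285, 433 and 2013 per kb in 5xFAD, against 395, 492 and 998 per kb in WT. In both genotypes replicate 3 held its highest level. Slc6a6, which takes up taurine, was at 1144, 779 and 691 per kb in 5xFAD, against 384, 379.7 and 889.7 per kb in WT, and WT 3 lay within the 5xFAD values. Slc43a3, a purine nucleobase carrier, was at 1064, 564 and 534 per kb in 5xFAD, against 856, 811 and 345 per kb in WT. Slc4a10, a sodium-coupled bicarbonate carrier, was at 445, 1059 and 252 per kb in 5xFAD, against 725, 456 and 851 per kb in WT. Slc23a2, which takes up vitamin C, was at 552, 845 and 158 per kb in 5xFAD, against 372, 689 and 963 per kb in WT, so genotypes overlapped for all 10 of these genes.

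Substrate classes were assigned by family. Their shares of the summed level per kb of the 73 listed genes are descriptions without a test (means ± SD, n = 3 each). Carriers of metals held 12.3 ± 6.31% in 5xFAD and 25.1 ± 11.3% in WT, with Slc31a2 as their highest gene. Amino acid carriers held 17.3 ± 2.79% in 5xFAD and 16.6 ± 2.49% in WT. Carriers of organic ions, bile acids, peptides and drugs held 15.2 ± 3.08% in 5xFAD and 12.9 ± 5.17% in WT, and carriers of inorganic ions 11.7 ± 2.24% in 5xFAD and 11.2 ± 1.90% in WT. The 2 genes that are not carriers, mostly Slc9a3r2, held 11.5, 8.07 and 17.2% in the 5xFAD libraries, against 8.34, 13.4 and 1.58% in the WT libraries. The order of the classes depends on the genotype and on the length used. Genotype means differed by less than either SD for amino acids, organic ions, inorganic ions and the genes that are not carriers. The same held for mitochondrial carriers, sugars and polyols, nucleosides, and the class of vitamins and heme. Mitochondrial carriers held 7.66 ± 1.54% in 5xFAD and 8.92 ± 3.88% in WT, carriers of sugars and polyols 6.12 ± 3.24% in 5xFAD and 5.40 ± 2.72% in WT, and those of nucleosides 5.02 ± 2.76% in 5xFAD and 4.42 ± 2.09% in WT. Genotypes overlapped in 11 of 12 classes. In the class of nucleotide sugars and other endomembrane substrates they did not, with shares of 2.00, 2.48 and 4.36% in 5xFAD, against 0.716, 0.630 and 0.666% in WT. That class holds 3 genes, none of them called. For 3 against 3 libraries the smallest p of an exact permutation test is 0.1, so 1 class of 12 without overlap is no result.

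**Figure D2:**
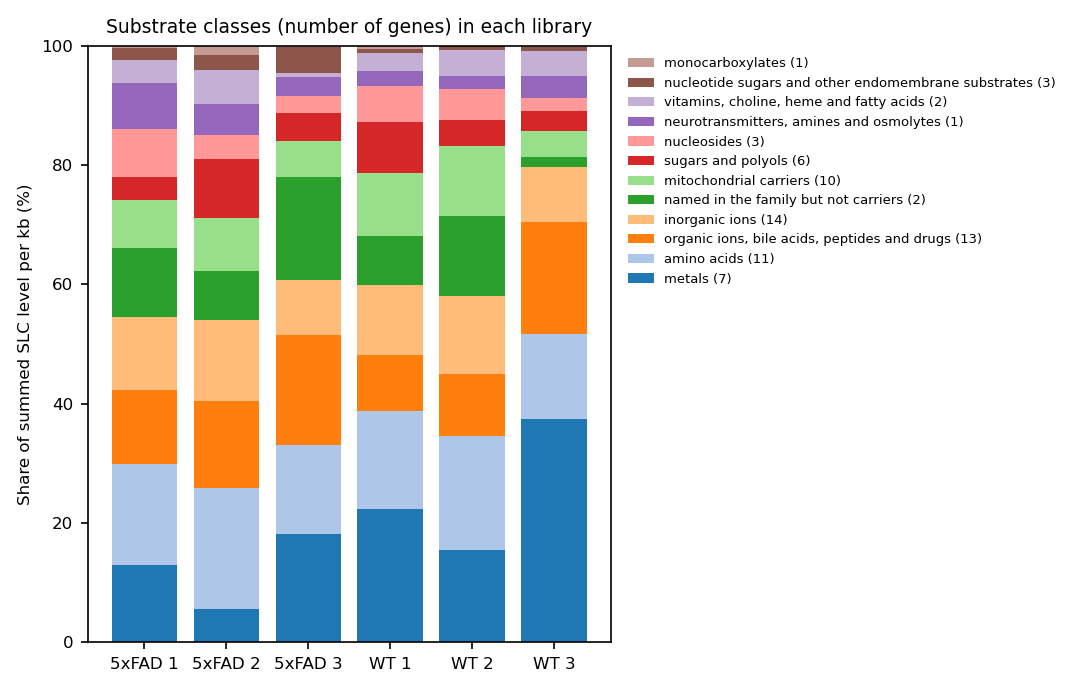
Share of the summed level per kb of all 73 genes taken by each substrate class, in percent, with 1 bar per library. Metals range from 5.67% in 5xFAD 2 to 37.5% in WT 3, while amino acids stay between 14.2% in WT 3 and 20.3% in 5xFAD 2.

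Differences between genotypes are given below with normalised counts per library, not divided by length. Slc25a48 was higher in 5xFAD, and Slc24a1, Slc2a12, Slc48a1 and Slc39a10 were lower. That is 5 of 69 SLC genes tested, 7.25%, against 6.36% of the 4152 genes tested in all (limma, Benjamini-Hochberg adjusted p under 0.05, mean normalised count of at least 10). The 1 higher gene makes 1.45%, against 1.88% of all genes tested, and the 4 lower genes make 5.8%, against 4.48%. The shares are near those of all genes tested, so the counts are no result about solute carriers as a group. Slc10a5, Slc22a12, Slc2a2 and Slc45a1, with mean normalised counts under 10, were not tested. Over all listed genes, 87, 86 and 147 had no reads in the 5xFAD libraries, against 26, 25 and 42 in the WT libraries. Genes without reads were thus more frequent in 5xFAD across the whole table. Its bearing on the lower calls with few or no 5xFAD reads was not tested. The median log2 fold change was 0.081 over the 69 genes, also with the gene that has no 5xFAD read at its bound, and -0.021 over all genes tested. Its sign turned under other settings, and 35 genes had a positive and 34 a negative log2 fold change. Of all genes tested, 49.3% had a positive one. Counts of calls and signs by class, given below, are descriptions and were not tested against these shares. Genotypes did not overlap for 7 of the 69 genes, 10.1%, against 18.1% of all genes tested, and 11 had an unadjusted limma p under 0.05, 15.9%, against 16.3%.

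**Figure D3:**
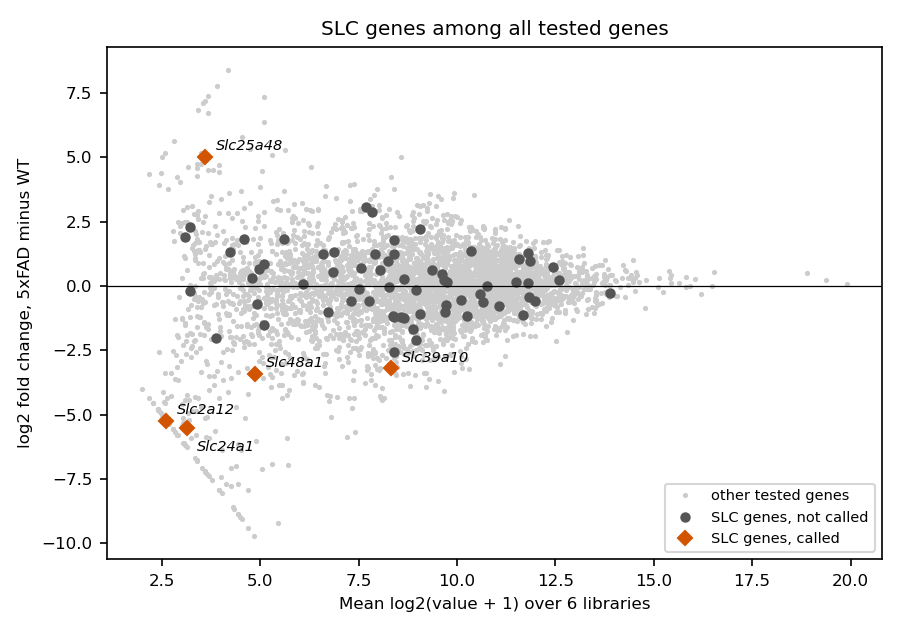
Log2 fold change, 5xFAD minus WT, against mean log2(value + 1) for all 4152 tested genes, with the 69 SLC genes as dark points and the 5 called ones as labelled diamonds. Of the diamonds 4 lie below 0, and 3 of the 5 genes have a mean normalised count under 50. The fitted values of these 3, Slc2a12, Slc24a1 and Slc25a48, depend on the pseudocount.

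Slc25a48, a carrier of the inner mitochondrial membrane, was the higher gene. Its normalised counts were 135, 98.5 and 23.9 in 5xFAD, against 4.11, 0 and 0.885 in WT. All 3 5xFAD libraries lay above all 3 WT libraries, which held 6 reads in all. The log2 fold change was 5.03 (SE 1.05, 95% interval 2.98 to 7.09, limma adjusted p = 7.28e-05; chromosome 13, 56438355 to 56474239 on GRCm38). It was 5.77 without 5xFAD 3 and 5.66 without WT 1. Since the WT libraries held so few reads, these fitted values depend on the pseudocount. With a mean level of 12.97 per kb Slc25a48 ranked 56 among the 73 genes.

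Slc24a1, an exchanger of sodium for calcium and potassium known from rod photoreceptors, was at 0, 1.22 and 0 in 5xFAD, against 54.2, 34.4 and 105 in WT. The 5xFAD libraries held 1 read and the WT libraries 222, without overlap. The WT over 5xFAD ratio of normalised counts was 180.4, with a counting interval of 32.1 to 7159 (limma adjusted p = 7.65e-06; chromosome 9, 64922861 to 64951607). Without 5xFAD 1 that ratio was 102, and without 5xFAD 2, which held the 1 read, the gene was at least 42.4-fold lower in 5xFAD against a floor of 3 reads over the group.

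Slc2a12, a facilitated glucose carrier (GLUT12), was at 0, 0 and 0 in 5xFAD, against 69.03, 46.5 and 15.04 in WT. The WT libraries held 151 reads and no 5xFAD library held any. It was at least 40.9-fold lower in 5xFAD against the same floor (limma adjusted p = 2.15e-05; chromosome 10, 22645011 to 22704285). Without 5xFAD 1 the bound was 23.2, since fewer libraries stand behind the floor. Its exons share 407 bases with those of Tbpl1 on the opposite strand, and without strand the reads there cannot be told apart.

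Slc48a1, which moves heme out of endosomes and lysosomes, was at 33.2, 4.86 and 2.65 in 5xFAD, against 163, 94.8 and 54.8 in WT. The groups did not overlap, and 5xFAD 1 lay well above the other 5xFAD libraries (log2 fold change -3.41, SE 1.07, 95% interval -5.50 to -1.32, limma adjusted p = 0.0257; chromosome 15, 97778520 to 97792692). The call was lost without 5xFAD 2, 5xFAD 3, WT 1 or WT 2, with limma adjusted p of 0.0625 to 0.222, and also with edgeR (adjusted p = 0.106), edgeR without the filter (0.116) and quantile normalization (0.0884). The log2 fold change was -4.37 without 5xFAD 1 and -2.76 without 5xFAD 3. Its exons share 29 bases with those of Hdac7 on the opposite strand.

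Slc39a10, a zinc importer of the plasma membrane (ZIP10), was at 21.6, 152 and 348 in 5xFAD, against 3115, 327 and 922 in WT. The groups overlapped, since 5xFAD 3 lay above WT 2, and WT 1 was far above the rest (log2 fold change -3.21, SE 1.03, 95% interval -5.23 to -1.18, limma adjusted p = 0.0331; chromosome 1, 46807544 to 46892852). The call was lost without 5xFAD 1, at -2.09 (limma adjusted p = 0.373), without WT 1, at -2.37 (limma adjusted p = 0.355), and without WT 3, at -3.25 (limma adjusted p = 0.0921). The log2 fold change was -4.06 without 5xFAD 3 and -3.99 without WT 2. The call was also lost at a mean of at least 50 (limma adjusted p = 0.0509), without a variance trend (0.0652) and with edgeR with and without the filter (0.0540 and 0.0560). None of the 5 called genes was among the 20 highest in level per kb. With each gene's own variance in place of the moderated one, a setting added after seeing the data, 0 of the 69 genes passed by limma and 6 had an unadjusted p under 0.05.

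**Figure D4:**
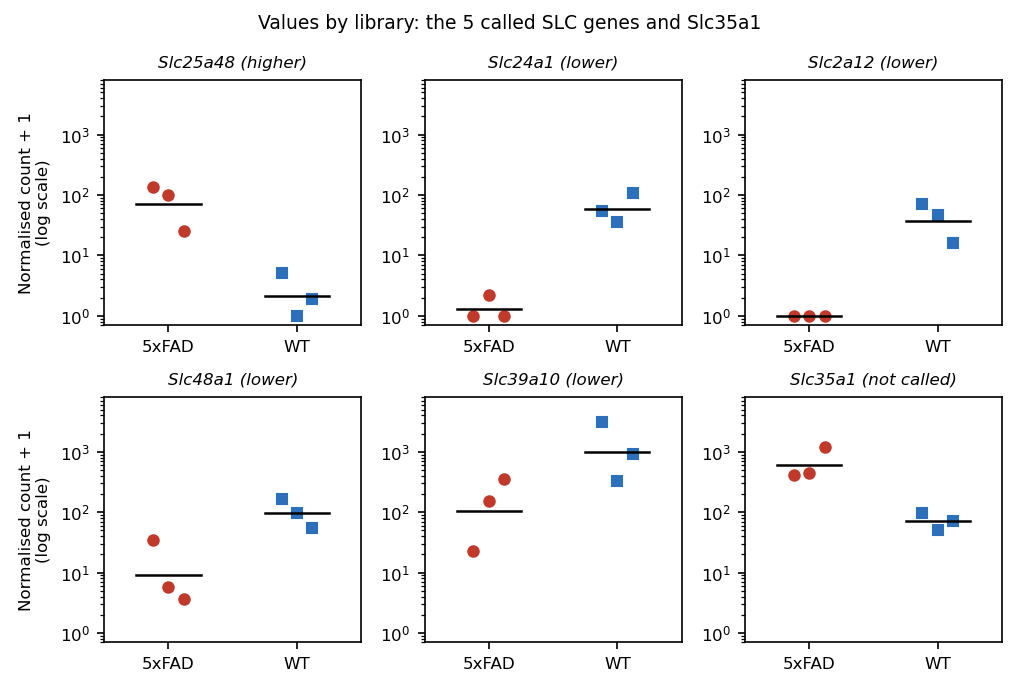
Normalised count + 1 on a log axis in each library for the 5 called SLC genes and for Slc35a1, with 5xFAD as circles left of WT as squares and the mean of the logs as a bar. Slc2a12 lies at 0 in all 3 5xFAD libraries, and for Slc39a10 the 5xFAD library at 348 lies above the WT library at 327.

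RefSeq promoters on GRCm38.p6 covered 59 of the 73 genes and 4 of the 5 called ones. The 250 bases upstream of their starts are printed so that the promoters of genes called together can be set side by side, with CG dinucleotides in capitals. The windows are chr13:56438105-56438354 (plus strand) for Slc25a48, chr9:64951621-64951870 (minus) for Slc24a1, chr10:22644761-22645010 (plus) for Slc2a12 and chr1:46853619-46853868 (minus) for Slc39a10.
Slc25a48: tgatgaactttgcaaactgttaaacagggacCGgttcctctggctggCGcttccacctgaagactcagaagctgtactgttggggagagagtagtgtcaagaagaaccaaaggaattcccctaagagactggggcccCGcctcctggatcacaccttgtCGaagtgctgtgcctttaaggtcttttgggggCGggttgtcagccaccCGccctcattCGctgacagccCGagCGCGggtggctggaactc
Slc24a1: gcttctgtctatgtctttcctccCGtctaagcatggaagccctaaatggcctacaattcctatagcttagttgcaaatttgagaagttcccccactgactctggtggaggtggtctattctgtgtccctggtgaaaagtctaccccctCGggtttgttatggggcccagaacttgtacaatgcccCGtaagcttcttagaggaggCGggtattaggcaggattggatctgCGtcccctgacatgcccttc
Slc2a12: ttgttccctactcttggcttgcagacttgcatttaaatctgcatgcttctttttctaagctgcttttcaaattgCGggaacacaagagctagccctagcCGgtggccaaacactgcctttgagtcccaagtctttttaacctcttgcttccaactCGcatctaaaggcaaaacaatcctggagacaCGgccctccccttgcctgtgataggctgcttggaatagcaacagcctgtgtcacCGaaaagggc
Slc39a10: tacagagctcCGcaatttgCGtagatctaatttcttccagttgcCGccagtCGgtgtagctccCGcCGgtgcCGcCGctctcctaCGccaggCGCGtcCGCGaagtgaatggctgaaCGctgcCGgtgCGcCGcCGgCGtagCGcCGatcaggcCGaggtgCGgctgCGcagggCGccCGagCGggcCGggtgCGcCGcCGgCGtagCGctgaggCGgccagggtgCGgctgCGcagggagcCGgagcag

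The Slc39a10 window held 37 CG dinucleotides, more than 97.8% of 32851 such windows, while a second start of the gene held 1. The windows of Slc24a1 and Slc2a12 held 5 each and that of Slc25a48 held 10, against a median of 6. On either strand, GGGCGG was found 2 times for Slc25a48 and CCAAT 1 time for Slc24a1, and 32.7% and 33.8% of all windows hold them. TATAAA (12.4% of all windows), CACGTG (6.02%) and the metal response letters TGCACNC (10.4%) and TGCGCNC (12.5%) were found in none of the windows of these 4 genes. A match of letters is not a binding site, and no match says only that the letters are not in the window.

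Mitochondrial carriers gave 1 call among 10 genes, that of Slc25a48, and a positive log2 fold change was seen for 6. Slc25a32, which carries folate and FAD, was at 134, 767 and 2419 in 5xFAD, against 170.1, 43.7 and 78.7 in WT. The 5xFAD libraries differed 18.1-fold among themselves, and 5xFAD 1 lay below WT 1 (log2 fold change 2.89, limma adjusted p = 0.0755). It passed with quantile normalization (limma adjusted p = 0.0482), edgeR with and without the filter (adjusted p = 0.0337 and 0.0306) and DESeq2 (adjusted p = 0.00387), and without 5xFAD 1 its log2 fold change was 4.01 (limma adjusted p = 0.0160), while without 5xFAD 3 it was 1.92 (limma adjusted p = 0.487). The highest genes of the class were at negative values. Slc25a37, which brings iron into mitochondria for heme synthesis, was at 1786, 2348 and 1023 in 5xFAD, against 3796, 3005 and 1966 in WT (log2 fold change -0.80, limma adjusted p = 0.734). Slc25a3, the phosphate carrier, was at 1747, 2064 and 605 in 5xFAD, against 1878, 1922 and 2279 in WT (log2 fold change -0.64, limma adjusted p = 0.814). Slc25a4, the ADP/ATP carrier, and Slc25a42, a coenzyme A carrier, had log2 fold changes of -1.08 and -1.69. Slc25a23, a calcium-sensitive carrier of ATP and phosphate, had 1.78, and Slc25a16, Slc25a43 and Slc25a53 had 1.82, 1.26 and 1.31.

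Among the 3 genes of nucleotide sugars and other endomembrane substrates none passed by limma and 1 had an unadjusted p under 0.05. Slc35a1, which takes CMP-sialic acid into the Golgi, was at 414, 440.1 and 1178 in 5xFAD, against 96.97, 49.3 and 71.7 in WT. The groups did not overlap, and the adjusted p lay just above the threshold (log2 fold change 3.08, SE 1.05, 95% interval 1.02 to 5.14, limma adjusted p = 0.0531). It passed at 0.05 in 7 other settings, among them DESeq2 (adjusted p = 3.84e-04). With any 1 library left out it did not pass (limma adjusted p of 0.0678 to 0.256). It also failed with edgeR (adjusted p = 0.0549) and with its own variance (limma adjusted p = 0.195). Slc35a3, which takes UDP-N-acetylglucosamine into the Golgi, was at 1131, 1735 and 4644 in 5xFAD, against 504, 894 and 1204 in WT, and 5xFAD 1 lay below WT 3 (log2 fold change 1.36, limma adjusted p = 0.495). Slc33a1, which brings acetyl-CoA into the endoplasmic reticulum, had a log2 fold change of 0.87.

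Of 7 metal carriers, Slc39a10 was called and 5 had a negative log2 fold change. Slc31a2 was at 1880.3, 917 and 6392 in 5xFAD, against 2523, 2808 and 15685 in WT (log2 fold change -1.11, SE 0.75, 95% interval -2.58 to 0.36, limma adjusted p = 0.502). Slc39a13, a zinc carrier of intracellular vesicles, was at 2538, 434 and 496 in 5xFAD, against 6494, 2203 and 442 in WT, a 14.7-fold range within WT (log2 fold change -1.18, limma adjusted p = 0.598). Slc30a7, which loads zinc into the Golgi, had -1.17 and Slc41a1, a magnesium transporter, -0.53. Slc39a7, which releases zinc from the endoplasmic reticulum, and Slc39a8, which imports zinc and manganese, had 0.97 and 0.61. Heme, the substrate of Slc48a1, was classed with vitamins, where Slc23a2 was at 4388, 6717 and 1256 in 5xFAD, against 2960.1, 5478 and 7654 in WT (log2 fold change -0.58, limma adjusted p = 0.782).

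None of the 11 amino acid carriers passed by limma (lowest adjusted p 0.127), 2 had an unadjusted p under 0.05, DESeq2 called Slc7a1, edgeR called none, and 7 had a positive log2 fold change. Slc38a2 was at 9954, 19527 and 13559 in 5xFAD, against 16791, 17237 and 16409 in WT (log2 fold change -0.28, SE 0.46, 95% interval -1.18 to 0.62, limma adjusted p = 0.856). The WT libraries lay close together, between the lowest and the highest 5xFAD library. Slc38a6 was at 8457, 3398 and 10305 in 5xFAD, against 3095, 6511 and 8888 in WT (log2 fold change 0.24, limma adjusted p = 0.916). Slc7a1, the importer of arginine and lysine, was at 217, 114 and 105 in 5xFAD, against 180.0, 1869 and 1654 in WT, with WT 1 among the 5xFAD values (log2 fold change -2.57, limma adjusted p = 0.127). It passed with DESeq2 (adjusted p = 0.00551) and, by limma, without WT 1 (log2 fold change -3.67, adjusted p = 0.0414). Slc1a3, a glutamate carrier also known from astrocytes, was at 583, 1356 and 1873 in 5xFAD, against 160.3, 834 and 109.7 in WT, with WT 2 among the 5xFAD values (log2 fold change 2.21, limma adjusted p = 0.210). Slc7a11, the cystine and glutamate exchanger, had a log2 fold change of 0.15.

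Of 14 inorganic ion carriers, Slc24a1 was called and 9 had a negative log2 fold change. Slc4a10 was at 2856, 6805 and 1617 in 5xFAD, against 4659.6, 2930.0 and 5467 in WT (log2 fold change -0.42, limma adjusted p = 0.870). Slc26a2, the sulfate carrier needed for sulfated proteoglycans, was at 5793, 4228 and 6960.0 in 5xFAD, against 3138, 6327 and 590.0 in WT (log2 fold change 1.29, limma adjusted p = 0.390), and WT 2 lay among the 5xFAD values. Slc20a1, a phosphate importer, was at 375, 423 and 3408 in 5xFAD, against 251, 500.3 and 1193 in WT (log2 fold change 0.62, limma adjusted p = 0.853). The chloride cotransporters Slc12a2 and Slc12a4 had log2 fold changes of 0.24 and -1.20, and the bicarbonate carrier Slc4a4 had -0.998.

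Carriers of organic ions, bile acids, peptides and drugs gave no call among 11 tested by limma (lowest adjusted p 0.259), and 1 had an unadjusted p under 0.05. Slc47a1 was at 4424, 3359 and 5779 in 5xFAD, against 1083, 1539.9 and 5914 in WT (log2 fold change 1.04, limma adjusted p = 0.561). Slco2b1 was at 1699, 2577 and 11995 in 5xFAD, against 2352, 2930.0 and 5945 in WT (log2 fold change 0.12, limma adjusted p = 0.965), and its sign turned when libraries were scaled to the same total. Slco1a4, an organic anion carrier of the blood-brain barrier that also stands in the blood endothelial list, was at 482, 279.6 and 80.9 in 5xFAD, against 551, 219 and 1135 in WT (log2 fold change -1.21, limma adjusted p = 0.637). Of the 7 genes of that list, Slco1a4 included, 2 had a positive and 5 a negative log2 fold change, from -1.78 for Esm1 to 0.58 for Flt1, and their part in the Slco1a4 values was not tested. Slc10a6, a carrier of steroid sulfates, was at 68.01, 599 and 332 in 5xFAD, against 915, 561 and 2045 in WT (log2 fold change -2.09, limma adjusted p = 0.259), with WT 2 below the highest 5xFAD library. Slc10a2, the bile acid carrier of the ileum, was at 93.7, 88.7 and 49.1 in 5xFAD, against 116, 265 and 107 in WT, without overlap of the groups (log2 fold change -0.99, limma adjusted p = 0.749).

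Sugar and polyol carriers other than Slc2a12 did not pass. Slc45a3, the highest of the class per kb, was at 681, 3280.1 and 1187 in 5xFAD, against 2424, 1077 and 1871 in WT (log2 fold change -0.29, limma adjusted p = 0.934). Slc50a1, a sugar carrier, had a log2 fold change of 1.22, and Slc5a3, the myo-inositol importer, which shares exonic bases with Mrps6, had -0.010. Slc43a3 was at 4749, 2518 and 2384 in 5xFAD, against 3821, 3621 and 1542 in WT (log2 fold change 0.14, limma adjusted p = 0.963). Slc6a6 was at 9673, 6592 and 5846 in 5xFAD, against 3248, 3211 and 7524 in WT (log2 fold change 0.75, limma adjusted p = 0.647). The intervals of all of these genes span 0. Slc16a9, a monocarboxylate carrier, was at 267, 889.9 and 211 in 5xFAD, against 330.4, 71.6 and 162 in WT (log2 fold change 1.23, limma adjusted p = 0.637). Slc9a3r2 was at 4474, 3156 and 9959.7 in 5xFAD, against 3259, 5956 and 971 in WT (log2 fold change 0.97, limma adjusted p = 0.579). Slc13a2os was at 35.7, 7.29 and 27.9 in 5xFAD, against 3.29, 1.86 and 5.31 in WT, without overlap (log2 fold change 2.28, limma adjusted p = 0.217), and passed with quantile normalization (limma adjusted p = 0.0329). It lies antisense to Slc13a2 and shares 632 of its 3627 exonic bases with it, and without strand the reads there cannot be told apart.

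**Figure D5:**
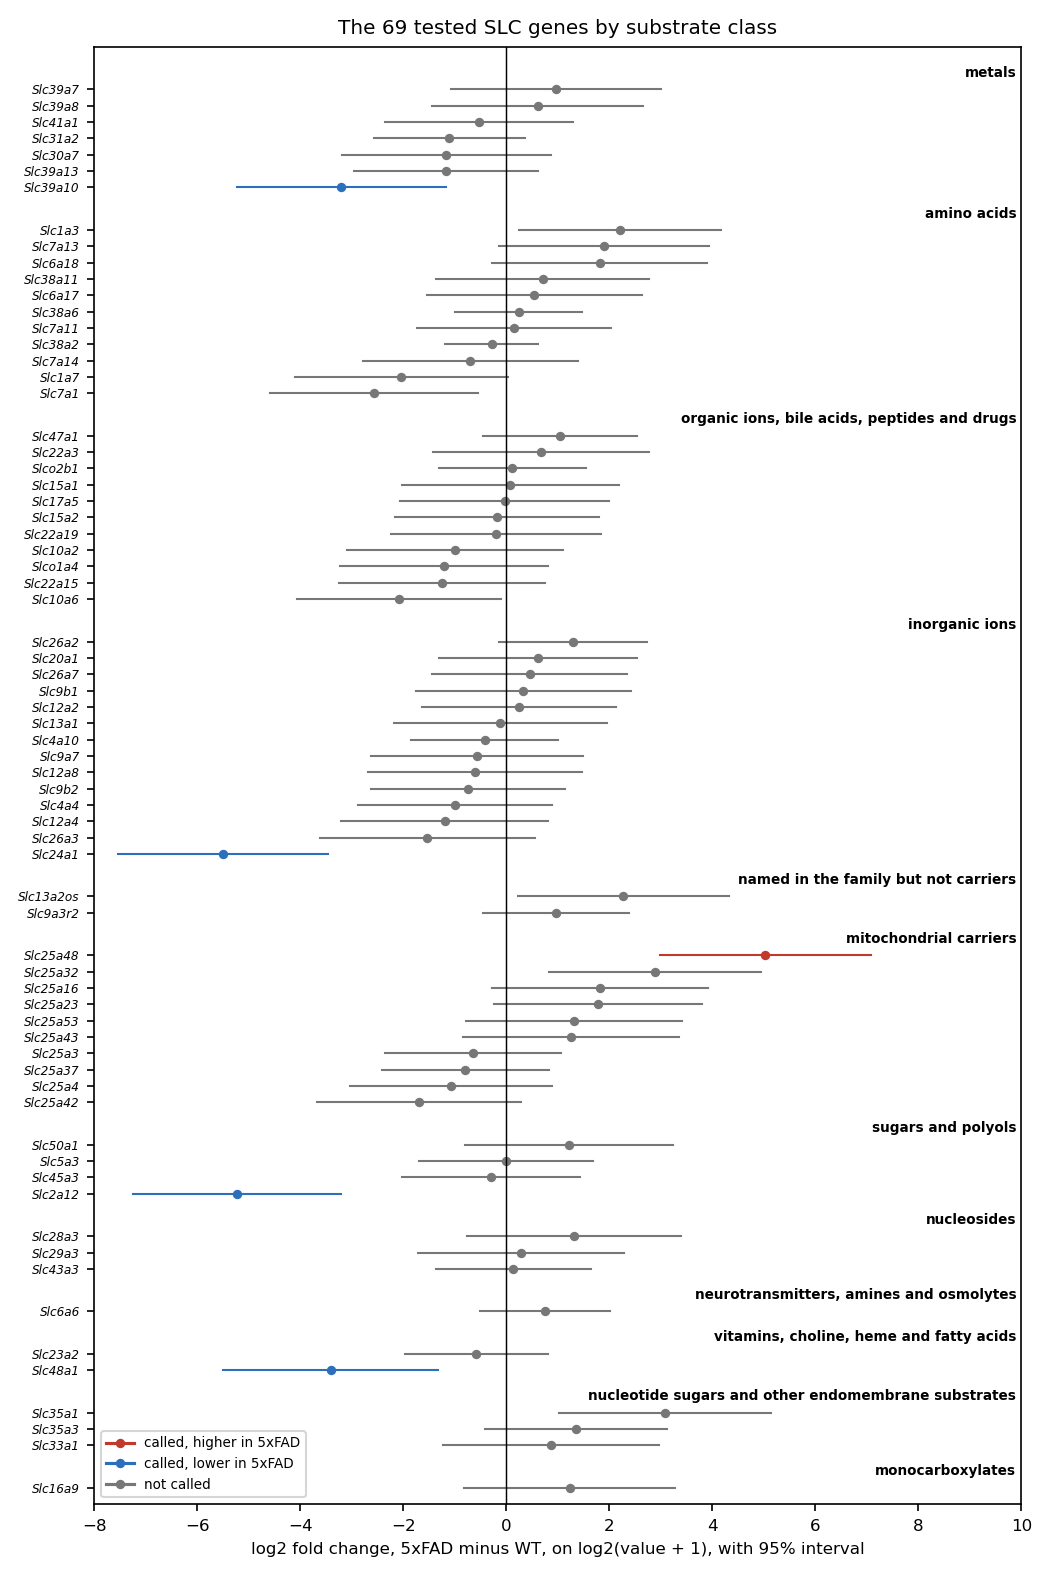
Log2 fold change, 5xFAD minus WT, on log2(value + 1) with its 95% limma interval for each of the 69 tested genes, grouped by substrate class. The called genes are Slc25a48 at 5.03, above 0, and Slc24a1, Slc2a12, Slc48a1 and Slc39a10 below 0. The fitted values of Slc2a12, Slc24a1 and Slc25a48 depend on the pseudocount.

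Genes that work with the carriers gave no call by limma, and 0 had an unadjusted p under 0.05. Of 29 partners 9 were analysed, and their median was 0.30 on the log2 scale. Bsg, the chaperone of monocarboxylate carriers, was at 827, 3499 and 3435 in 5xFAD, against 3351, 2627 and 4605 in WT (log2 fold change -0.68, limma adjusted p = 0.769). Atp1b3, a beta subunit of the sodium pump that powers sodium-coupled carriers, was at 1458, 977 and 176 in 5xFAD, against 1155, 2211 and 1206 in WT (log2 fold change -1.20, limma adjusted p = 0.604).

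Replicate spread was wide for the carriers. Among tested genes with reads in every library of a genotype, 67 in 5xFAD and 68 in WT, the highest library was a median of 3.88 times the lowest within 5xFAD and 4.69 times within WT. That ratio was at least 10 for 8 genes within 5xFAD and for 11 within WT. The median SD of log2 reads within a genotype was 1.06 for tested SLC genes and 1.02 for all genes tested. The median 95% interval reached 2.02 log2 units to each side, and for 0 of the 69 genes did it lie within 1 log2 unit of no difference.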

How the data were processed

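Per the labels' protocols, RNA was isolated with a PicoPure kit and underwent linear amplification. The submitters' processing notes name FastQC, Trimmomatic, Salmon, DESeq2 and mm10, without versions. The authors deposited a normalized signal (normalised counts), and 100% of its values were whole multiples of 1 step per library, within 1e-04 reads, from which whole reads were recovered. They sum to 7960827 to 13255050 per library over listed genes, which is less than the depth of a library. Whether counting used strand is not given in the sources used here. Salmon, named above, estimates counts and divides reads that match more than 1 transcript. The whole reads recovered may therefore be rounded estimates.

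Of 4233 genes, 4152 with a mean of at least 10 were tested on log2(value + 1) with limma 3.58.1 (R 4.3.3), with a variance trend and no block, two-sided, with calls at a Benjamini-Hochberg adjusted p under 0.05. The prior degrees of freedom were infinite, so SEs and intervals reflect the spread typical of a gene's level. The scale understates changes of low genes. The spread limit acts within genotypes, which favours genes that are even there and bears on every call, rank and class share. Floors and counting intervals cover counting error only. Alternatives used edgeR 4.0.16, DESeq2 1.42.0 and voom on whole reads, other filters, pseudocounts, scalings and lengths, and left out each library. The code of the test and the sign of its fold change were checked on simulated counts. Their spread was set by a gene's level alone and no spread limit was applied. The check therefore cannot show whether a shared variance suits these data. Lengths and positions are from GENCODE M21 (GRCm38), which matched all 73 genes, and 22 of them share exonic bases with another gene.

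The rule for named genes took the called genes, the 10 highest per kb, the highest of each class, uncalled genes without overlap (up to 5 per direction), carriers known from barriers, and partners such as Bsg and Atp1b3, not all of which are reported here. Other genes were named after their values were seen. The members and lists were chosen with earlier results of these data known.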

Additional observations from a re-analysis of the deposited data

How the results depend on the processing

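The counts of 1 SLC gene higher and 4 lower in 5xFAD changed to 0 higher and 1 lower at a mean of 50 or more, which tests fewer genes, to 2 and 3 without a variance trend, 2 and 4 after recentring on the median log ratio, 4 and 3 with quantile normalization, 2 and 2 with edgeR, 3 and 2 with edgeR and no filter, 3 and 5 with DESeq2, 2 and 4 with voom, and 3 and 4 at an adjusted p under 0.1. Other than for the filter and the looser threshold, the cause was not tested. With an SD over all 6 libraries under 2 they were 0 and 0 by limma (5 genes at an unadjusted p under 0.05), where by construction none of the 5 called genes is tested. With each gene's own variance, added after seeing the data, they were also 0 and 0. Leaving out 1 library gave 1 to 2 higher and 3 to 3 lower, the 2 being without 5xFAD 1. The replicate block gave 2 and 4, adding Slc35a1. Replicate numbers did not pair the libraries, with correlations of deviations of 0.00247, -0.0157 and -0.0126, and no library was closest to its own number (0 of 6).

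Slc24a1, Slc2a12 and Slc25a48 kept their calls in each setting that tested them except with their own variance (adjusted p = 0.0838, 0.101 and 0.225). Slc39a10 and Slc48a1 each lost theirs in 8 settings. Slc24a1, Slc2a12 and Slc25a48 reached the mean of 10 only through the genotype where they are high. Their mean normalised counts were 0.405, 0 and 85.9 in 5xFAD, against 64.6, 43.5 and 1.66 in WT. The calls they kept are therefore no separate support. The sign turned for uncalled genes. Slco2b1 was at -0.0014 with the same total and -0.020 with voom. With 1 library left out, log2 fold changes ran over -0.72 to 0.69 for Slco2b1, -0.19 to 0.73 for Slc38a6, -0.28 to 0.37 for Slc43a3, -0.92 to 0.22 for Slc45a3, -1.09 to 0.12 for Slc23a2, -0.97 to 0.066 for Slc4a10 and -1.03 to 0.013 for Bsg. On the same total the median over all genes moved to -0.14, against -0.021, and that of SLC genes to -0.036.

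Of the 10 highest genes, 8 to 10 remained under other lengths and scaling and 9 to 10 without 1 library. Their order depended on the length used. The median transcript has 559 bases for Slc6a6 and 5388 for Slc38a2, against merged exons of 8457 and 8838 bases. By the median transcript Slc6a6 lay above Slc38a2 and Slc31a2. Class shares over all libraries moved with the length used. By the longest transcript amino acids held 20.5%. By the median transcript the shares were 14.2% for amino acids, 9.33% for inorganic ions, 3.69% for the 2 genes that are not carriers, 14.7% for Slc6a6, 7.35% for nucleosides, 3.36% for nucleotide sugars, 2.38% for sugars and 10.3% for vitamins and heme. Without division by length they were 26.8% for amino acids, 15.6% for inorganic ions and 6.43% for Slc6a6.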
